A study of Mus musculus with 7 samples.

Results

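Transcripts of 10 genes that make, activate, receive or restrain the cytokine TGF-beta were compared in regulatory T cells (Tregs) of the skin and of the skin-draining lymph nodes (SDLN). The genes, chosen with earlier results of these data known, were taken by symbol from the 24084 gene rows of the count table. They are Tgfb1, Lrrc32 and Furin (ligand and latency), Itgav and Itgb8 (activating integrin), Tgfbr1 and Tgfbr2 (receptor), Smad3 (signal transducer), and Smad7 and Skil (inhibitors). All 10 were found, and all 10 passed the filter on low counts that left 11376 genes to be tested.

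The tested Tregs were sorted from telogen skin (4 libraries, skin 1 to 4) and their comparison cells from SDLN (3 libraries, SDLN 1 to 3). Telogen is the resting phase of the hair cycle. All mice were 6 weeks old and of the Foxp3-DTR strain, in which the diphtheria toxin receptor and a green fluorescent protein are tied to Foxp3, so both tissues share this allele. How the cells were gated, and how many animals went into a library, is not stated in the sources used here; p-values therefore measure the spread between libraries, which may be technical.

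TGF-beta is made as an inactive complex. The protease furin cuts the precursor, the cut propeptide stays wrapped around the growth factor, and the Lrrc32 protein, known as GARP, holds this latent complex on the surface of Tregs. Integrins built from the alpha V chain (Itgav) and the beta 8 chain (Itgb8) bind the propeptide and release active TGF-beta, which joins a type II and a type I receptor (Tgfbr2 and Tgfbr1). The type I receptor phosphorylates Smad2 and Smad3, while Smad7 blocks the receptor and Skil, known as SnoN, represses Smad target genes; both inhibitors are known to be induced by the pathway itself. In Tregs, TGF-beta is known to support Foxp3 expression and to induce the integrin chain CD103 that retains cells in epithelia.

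The genomic DNA just before the start of a pair of these genes is shown because 1 of them, Itgav, had the smallest p of the 10 and the other, Tgfb1, encodes the ligand. Each run gives the 250 bases before the RefSeq start on build GRCm38.p6, written 5′ to 3′ on the strand of the gene, which is the plus strand for both. Capitals mark the GC box GGGCGG or its reverse complement.
Itgav, chr2:83724147-83724396: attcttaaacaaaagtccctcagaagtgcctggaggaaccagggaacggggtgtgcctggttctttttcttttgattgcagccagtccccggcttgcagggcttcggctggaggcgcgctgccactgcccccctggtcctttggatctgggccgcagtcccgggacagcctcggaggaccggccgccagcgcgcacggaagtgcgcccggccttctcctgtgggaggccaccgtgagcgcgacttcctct
Tgfb1, chr7:25686752-25687001: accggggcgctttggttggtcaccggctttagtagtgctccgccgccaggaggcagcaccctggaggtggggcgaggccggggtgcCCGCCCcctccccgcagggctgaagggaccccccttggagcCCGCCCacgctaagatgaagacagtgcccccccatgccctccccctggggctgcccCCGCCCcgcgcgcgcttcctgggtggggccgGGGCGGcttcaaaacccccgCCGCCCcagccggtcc
Both strands were searched for the Smad half-site CAGAC, the Smad palindrome GTCTAGAC, the AP-1 site TGANTCA, the cyclic AMP response element TGACGTCA and the GC box GGGCGG. The Tgfb1 window held 5 GC boxes and none of the other motifs, and the Itgav window held none of the 5 motifs. Of all 32851 promoter windows of this length, 42.2% held CAGAC, 0.167% GTCTAGAC, 6.75% TGANTCA, 1.55% TGACGTCA and 32.7% GGGCGG. Among the 9 windows of 7 of the genes, CAGAC was found in both windows of Furin, 1 of the 2 of Tgfbr1, and those of Tgfbr2 and Itgb8, and no window held GTCTAGAC, TGANTCA or TGACGTCA. By the GENCODE M21 coordinates, the Itgb8 window and the second windows of Furin and Tgfbr1 lie inside the gene rather than before it. A match is a run of letters and not a measured site. No promoter of Lrrc32, Smad7 or Skil was used.

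Itgav and Itgb8 rose in skin Tregs, 6.06-fold and 5.60-fold by the fitted values. Their transcripts were higher in every skin library than in any SDLN library (edgeR's quasi-likelihood test, adjusted p = 0.0115 for Itgav and 0.0354 for Itgb8). Of the 10 genes, 2 passed the test as higher in skin, against 3.28% of all tested genes, and 0 passed as lower, against 3.96%. No member was lower either when the p was left unadjusted (0 at p under 0.05, against 8.52% of all tested genes), in DESeq2 (0, against 4.46%) or in limma-voom (0, against 6.41%). In limma-voom, the median log2 fold change over all tested genes was itself -0.616. In edgeR, the median log2 fold change was 1.65 over the 10 genes and 0.05 over all tested genes. Because the 10 genes were chosen with earlier results of these data known, shares and medians here and below describe them and are no test. In bulk libraries, fewer cells of a type and less RNA per cell cannot be told apart.

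For 6 of the 10 genes, Tgfb1, Furin, Itgav, Itgb8, Tgfbr1 and Smad7, every skin library lay above every SDLN library, as it did for 10.1% of all tested genes. The same 6 had an unadjusted p under 0.05 in edgeR, against 1142 of the 11376 tested genes (10%) in that direction, and the same 6 passed with DESeq2, against 8.11%. For 1 gene, Lrrc32, every skin library lay below every SDLN library, as it did for 1881 of the 11376 tested genes. Tgfbr2, Smad3 and Skil overlapped between the tissues. With either direction counted, the tissues did not overlap for 26.6% of all tested genes, and 7.24% of them passed the edgeR test. CPM below are counts scaled to a common library size with TMM factors, means are given ± SD over 4 skin and 3 SDLN libraries, and fold changes are skin over SDLN.

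**Figure D1:**
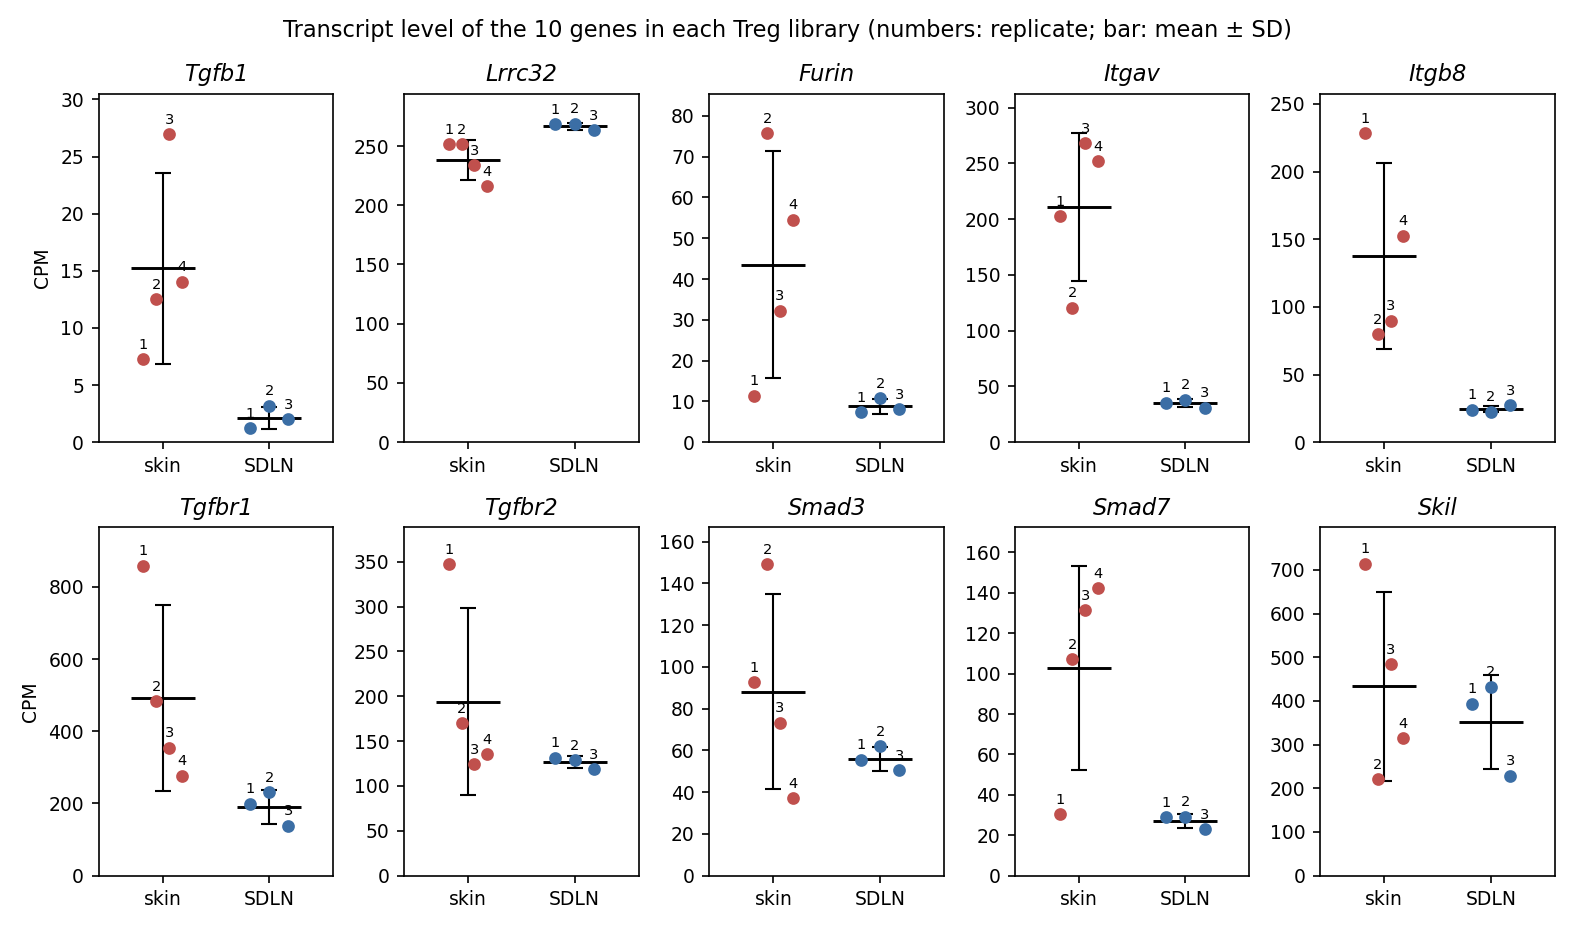
Level of each of the 10 genes, in CPM, in the 4 skin libraries (red) and the 3 SDLN libraries (blue), with the replicate number at each point, the mean as a horizontal line and the SD as the error bar. Itgav and Itgb8 stand at 79.7 CPM or more in every skin library and at 38.1 CPM or less in every SDLN library, while Lrrc32 stays between 216 and 269 CPM in all 7.

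Itgav, the alpha V chain that pairs with beta 8 and other beta chains (chromosome 2, 83724397 to 83806916), was at 203, 120.5, 268 and 252 CPM in skin 1 to 4, against 35.4, 38.1 and 30.8 CPM in SDLN 1 to 3. Skin 2 was the lowest skin library and still far above the highest SDLN library. The means were 211 ± 66.4 CPM in skin and 34.8 ± 3.69 CPM in SDLN (log2 fold change 2.60, SE 0.37, edgeR adjusted p = 0.0115). The adjusted p was 0.0854 to 0.0977 when any 1 SDLN library was left out, and 2.48e-10 to 0.148 over all alternatives, with a log2 fold change of 2.42 to 2.77.

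Itgb8, the chain that gives this integrin its activity on latent TGF-beta (chromosome 12, 119158022 to 119238802), was at 228, 79.7, 89.6 and 153 CPM in skin 1 to 4, against 24.1, 22.4 and 27.2 CPM in SDLN 1 to 3. Skin 1 was highest, and skin 2 and 3 lay together at the low end of the skin range, well above SDLN. The means were 138 ± 68.6 CPM in skin and 24.5 ± 2.44 CPM in SDLN (log2 fold change 2.49, SE 0.48, edgeR adjusted p = 0.0354). Itgb8 did not pass without any 1 SDLN library (adjusted p 0.165 to 0.176), with limma-voom (0.0604) or without the low-count filter (0.0531), and the range over all alternatives was 1.05e-05 to 0.265. The ratio of Itgb8 to Itgav per exon length was 0.325 to 1.09 in skin libraries and 0.570 to 0.857 in SDLN libraries, so the ranges overlapped.

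Tgfb1, the ligand (chromosome 7, 25687002 to 25705077), was at 7.27, 12.5, 27.0 and 14.1 CPM in skin 1 to 4, against 1.22, 3.18 and 2.01 CPM in SDLN 1 to 3. These values rest on 79, 155, 306 and 197 counts in skin and on 18, 46 and 26 counts in SDLN. The means were 15.2 ± 8.36 CPM in skin and 2.13 ± 0.984 CPM in SDLN (log2 fold change 2.83, SE 1.13, edgeR adjusted p = 0.225). No skin library was as low as any SDLN library, but the gene did not pass. It passed with DESeq2 (adjusted p = 0.00848, and 0.00848 to 0.687 over all alternatives).

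Furin, the convertase that cuts the precursor of TGF-beta among many other proteins (chromosome 7, 80388585 to 80405436), was at 11.4, 75.7, 32.3 and 54.6 CPM in skin 1 to 4, against 7.33, 10.8 and 8.11 CPM in SDLN 1 to 3. Skin 1 lay just above the SDLN range and the other skin libraries lay far above it. The means were 43.5 ± 27.8 CPM in skin and 8.76 ± 1.84 CPM in SDLN (log2 fold change 2.31, SE 0.81, edgeR adjusted p = 0.162). Without skin 1 it passed (log2 fold change 2.63, adjusted p = 0.0317), as it did with DESeq2 (adjusted p = 0.0172, and 0.0172 to 0.564 over all alternatives).

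Lrrc32, which tethers latent TGF-beta to the Treg surface (chromosome 7, 98489283 to 98502181), was at 251, 252, 234 and 216 CPM in skin 1 to 4, against 268, 269 and 263 CPM in SDLN 1 to 3. It had the smallest spread of the 10 genes in each tissue, with a coefficient of variation of 0.0713 in skin and 0.0116 in SDLN. Each skin library was below each SDLN library by a small margin, at 238 ± 17.0 CPM in skin and 267 ± 3.08 CPM in SDLN (log2 fold change -0.16, SE 0.21, edgeR adjusted p = 0.792), and over all alternatives its log2 fold change was -0.27 to -0.12.

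Tgfbr1, the type I receptor kinase (chromosome 4, 47353222 to 47414931), was at 859, 483, 355 and 277 CPM in skin 1 to 4, against 199, 231 and 139 CPM in SDLN 1 to 3. All skin libraries were above all SDLN libraries, and skin 1 was highest. The means were 493 ± 258 CPM in skin and 189.5 ± 46.6 CPM in SDLN (log2 fold change 1.38, SE 0.43, edgeR adjusted p = 0.115). It passed with DESeq2 (adjusted p = 0.0238, and 0.0238 to 0.405 over all alternatives).

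Tgfbr2, the type II receptor that binds the ligand (chromosome 9, 116084293 to 116175360), was at 347, 170, 124 and 136 CPM in skin 1 to 4, against 132, 129 and 119 CPM in SDLN 1 to 3. Skin 1 stood above the rest, and skin 3 lay inside the SDLN range. The log2 fold change was 0.62 (SE 0.40, edgeR adjusted p = 0.509) with all libraries and 0.18 (adjusted p = 0.722) without skin 1. The ratio of Tgfbr1 to Tgfbr2 per exon length, which does not depend on how libraries are scaled, was 3.10, 3.57, 3.58 and 2.56 in skin 1 to 4, against 1.89, 2.24 and 1.46 in SDLN 1 to 3, with no overlap.

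Smad3, the transcription factor that the receptor phosphorylates (chromosome 9, 63646767 to 63757994), was at 92.7, 149, 73.3 and 37.2 CPM in skin 1 to 4, against 55.6, 61.9 and 50.4 CPM in SDLN 1 to 3. Skin 4 lay below the SDLN range and the other skin libraries above it. The log2 fold change was 0.65 (SE 0.50, edgeR adjusted p = 0.591), and 0.25 to 0.90 over all alternatives.

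Smad7, the inhibitor of the receptor (chromosome 18, 75367529 to 75395935), was at 30.6, 107, 131 and 142 CPM in skin 1 to 4, against 28.8, 29.3 and 23.0 CPM in SDLN 1 to 3. Skin 1 was only just above the SDLN range, and the other skin libraries were all several times higher. The means were 103 ± 50.4 CPM in skin and 27.0 ± 3.49 CPM in SDLN (log2 fold change 1.93, SE 0.57, edgeR adjusted p = 0.101). Without skin 1 the gene passed (log2 fold change 2.23, adjusted p = 0.0160), and it also passed with DESeq2 (adjusted p = 0.0100) and with a variance weight per tissue in limma-voom (adjusted p = 0.0347), with 0.0100 to 0.456 over all alternatives. The ratio of Smad7 to Smad3 per exon length was 0.404 to 4.69 in skin libraries and 0.559 to 0.635 in SDLN libraries.

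Skil, the co-repressor SnoN (chromosome 3, 31095058 to 31122577), was at 714, 221, 484 and 315 CPM in skin 1 to 4, against 393, 432 and 229 CPM in SDLN 1 to 3. The tissues overlapped, and each had a low library, skin 2 and SDLN 3. The log2 fold change was 0.30 (SE 0.43, edgeR adjusted p = 0.815) and turned to -0.045 without skin 1. The ratio of Skil to its relative Ski per exon length was 0.555 to 2.13 in skin libraries and 1.28 to 2.41 in SDLN libraries.

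**Figure D2:**
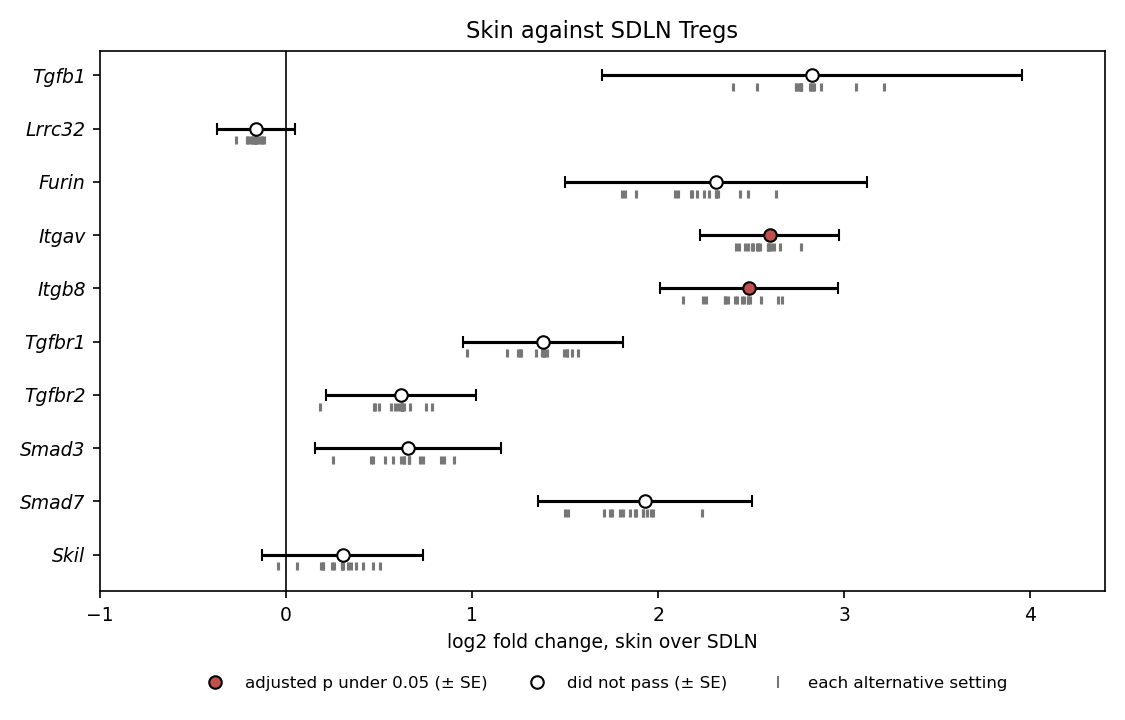
Log2 fold change of skin over SDLN for each gene (circle, with its SE as the bar; filled where the edgeR adjusted p was under 0.05), and under each of the 16 alternative settings (grey ticks). Itgav and Itgb8 are the filled circles, at 2.60 and 2.49, and the ticks of every gene other than Skil stay on 1 side of 0.

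The skin libraries did not rank alike over the 10 genes. Of the 10 genes, 4 were highest of the skin libraries in skin 1 (Itgb8, Tgfbr1, Tgfbr2 and Skil) and 3 were lowest there (Tgfb1, Furin and Smad7). Skin 1 is skin by its title and source, although the tag for its tissue reads lymph node. Without skin 1, 4 of the 10 genes passed as higher in skin (Furin, Itgav, Itgb8 and Smad7), against 5.13% of all genes tested without it. The median coefficient of variation of the 10 genes was 0.511 in skin and 0.118 in SDLN, against 0.7499 and 0.187 over all tested genes.

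Levels of different genes were set side by side as CPM per kilobase of exon, with the exon length of each gene taken from GENCODE M21. In skin, the order was Tgfbr1 at 75.5, Lrrc32 at 50.8, Skil at 44.7, Tgfbr2 at 23.7, Smad7 at 22.8, Itgav at 19.6, Smad3 at 15.9, Itgb8 at 12.4, Furin at 4.74 and Tgfb1 at 3.02 CPM per kilobase. The ranges of the skin libraries overlapped in all 9 pairs of neighbours in this order. In SDLN it was Lrrc32 at 56.9, Skil at 36.2, Tgfbr1 at 29.0, Tgfbr2 at 15.4, Smad3 at 10.1, Smad7 at 5.98, Itgav at 3.24, Itgb8 at 2.22, Furin at 0.954 and Tgfb1 at 0.423 CPM per kilobase. There, only the neighbours Skil and Tgfbr1 overlapped. Tgfb1 had the lowest mean per exon length in both tissues, but in skin it did not stand below Furin in every library, at 1.44 to 5.35 for Tgfb1 and 1.24 to 8.25 CPM per kilobase for Furin.

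The genes whose log2 CPM followed Itgav most closely over the 7 libraries, among the 6814 genes that averaged 20 CPM or more (clone names left out), were Gbe1 (Pearson r = 0.994), Gna13 (0.989) and Dst (0.988). Those closest to Itgb8 included Fam129a (r = 0.996) and Cd83 (0.995). Itgav and Itgb8 had r = 0.923 with each other, which placed Itgb8 at position 180 among the genes most like Itgav. These values describe 7 libraries in 2 groups, so a difference between the tissues raises them, and libraries share their depth across genes.

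The wider pathway was read from 7 lists drawn up with earlier results of these data known. Beyond the 10 genes, 77 genes were listed, 49 could be tested, 11 passed as higher in skin (22.4%, against 3.28% of all tested genes) and 0 as lower. DESeq2, limma-voom and an unadjusted p of under 0.05 each gave 0 lower genes as well. The median log2 fold change of the 49 was 1.05, against 0.05 over all tested genes. Without the list of induced genes, 4 of 37 passed as higher (10.8%) and the median was 0.73. The 4 still include Pmepa1, an induced gene that stayed because it is in the list of inhibitors too. The 11 became 2, 1 and 3 without SDLN 1, 2 and 3, and 19 with DESeq2, which called 8.11% of all tested genes higher. Over all genes, 373 were called higher with every library kept, and 33 to 582 with 1 library left out.

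Among ligands and latency proteins, 1 of 6 tested genes rose (16.7%, against 3.28% of all tested genes), and it was not a TGF-beta gene proper. Hsp90b1, the chaperone gp96 that GARP and integrins need for folding, was at 987, 796.5, 786.5 and 869 CPM in skin 1 to 4, against 460.1, 399 and 422 CPM in SDLN 1 to 3 (log2 fold change 1.01, SE 0.20, edgeR adjusted p = 0.0380, and 1.04e-05 to 0.328 over all alternatives). All skin libraries were higher than all SDLN libraries. Among activators, 2 of 7 rose (28.6%, against 3.28% of all tested genes), Itgav and Itgb8 themselves. The most abundant activator, the lysosomal protease Ctsd, was at 566 ± 118 CPM in skin and 714 ± 79.0 CPM in SDLN without passing (edgeR adjusted p = 0.559). Other beta chains that pair with alpha V did not pass either, or could not be tested. Itgb3 was at 60.8 ± 32.9 against 51.9 ± 5.99 CPM, and Itgb1 at 117 ± 46.5 against 134 ± 6.19 CPM (skin against SDLN; adjusted p = 0.892 and 0.859). These beta chains are named although the rule for named genes did not take them.

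Among receptors, 1 of 8 tested genes rose (12.5%, against 3.28% of all tested genes). Bmpr1a, a type I receptor for bone morphogenetic proteins, was at 61.5, 41.4, 106 and 83.3 CPM in skin 1 to 4, against 1.29, 2.28 and 3.01 CPM in SDLN 1 to 3 (log2 fold change 5.05, SE 0.69, edgeR adjusted p = 0.00998, and 5.84e-17 to 0.151 over all alternatives). Every skin library was far above the SDLN range. Of the 9 tested Smads and co-factors, 0 passed in edgeR (3.28% of all tested genes higher). The number was also 0 with DESeq2 (8.11% of all tested genes higher), limma-voom (2.38%) and an unadjusted p of under 0.05, and 1 without skin 2, the acetyltransferase Ep300, named after its values were seen. The most abundant, Crebbp, another acetyltransferase, was at 230 ± 117 CPM in skin and 201 ± 21.8 CPM in SDLN (adjusted p = 0.896). Smad2 was at 67.1, 25.1, 72.6 and 172 CPM in skin 1 to 4, against 152, 130.4 and 119 CPM in SDLN 1 to 3, so that Smad3 to Smad2 per exon length ran over 0.343 to 9.41 in skin libraries and 0.579 to 0.752 in SDLN libraries.

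Among inhibitors and turnover genes, 2 of 16 tested genes rose (12.5%, against 3.28% of all tested genes), Pmepa1 and Tgif1. Pmepa1, a membrane protein that keeps Smads from the receptor and is known as a TGF-beta target, was at 112, 128, 98.5 and 126 CPM in skin 1 to 4, against 30.3, 25.4 and 23.6 CPM in SDLN 1 to 3 (log2 fold change 2.13, SE 0.35, edgeR adjusted p = 0.0177, and 6.17e-11 to 0.264 over all alternatives). Its skin libraries lay close together. Tgif1, a homeobox repressor of Smad targets, was at 833, 495, 236 and 646 CPM in skin 1 to 4, against 69.7, 81.3 and 104 CPM in SDLN 1 to 3 (log2 fold change 2.70, SE 0.45, edgeR adjusted p = 0.0204, and 1.68e-07 to 0.185 over all alternatives).

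Of 15 tested genes known to be induced by TGF-beta in T cells or other cells, 8 rose (53.3%, against 3.28% of all tested genes) and 0 fell in edgeR. This list too was drawn up with earlier results of these data known, so the share describes it and is no test of TGF-beta activity. The number of its genes called higher was 9 with DESeq2 (against 8.11% of all tested genes), 5 with limma-voom (against 2.38%), and 2, 1 and 3 without SDLN 1, 2 and 3. With 1 library left out, calls of higher genes over all genes ranged over 33 to 582, against 373 with every library kept. The number lower was 0 with both tools and at an unadjusted p of under 0.05. Skil and Smad7, which are in this list too, were among the 7 that did not pass. The Id2 protein, which blocks basic helix-loop-helix factors, was at 872, 909, 805 and 1431 CPM of transcript in skin 1 to 4, against 63.1, 75.8 and 128 CPM in SDLN 1 to 3 (log2 fold change 3.50, SE 0.38, edgeR adjusted p = 0.00470, and at most 0.0480 over all alternatives). Itgae, the CD103 chain, was at 2700, 1948, 1193 and 1873 CPM in skin 1 to 4, against 261, 321 and 283 CPM in SDLN 1 to 3 (log2 fold change 2.74, SE 0.32, edgeR adjusted p = 0.00610, and 9.27e-15 to 0.0749 over all alternatives). Gadd45b, a stress-responsive gene, was at 667, 167, 488 and 306 CPM in skin 1 to 4, against 15.9, 13.8 and 9.89 CPM in SDLN 1 to 3 (log2 fold change 4.94, SE 0.57, edgeR adjusted p = 0.00610, and 4.71e-20 to 0.0601 over all alternatives). Skin exceeded SDLN in every library for all 3 genes. Pmepa1, Ccr8, Cdkn1a, Junb and Runx3 were the other genes that rose; all of these genes are known to respond to other stimuli too. Id3 was lower in each skin library than in each SDLN library, at 76.8, 0.0809, 246 and 60.3 CPM in skin 1 to 4, against 452, 443 and 646 CPM in SDLN 1 to 3, without passing (log2 fold change -2.42, edgeR adjusted p = 0.427).

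**Figure D3:**
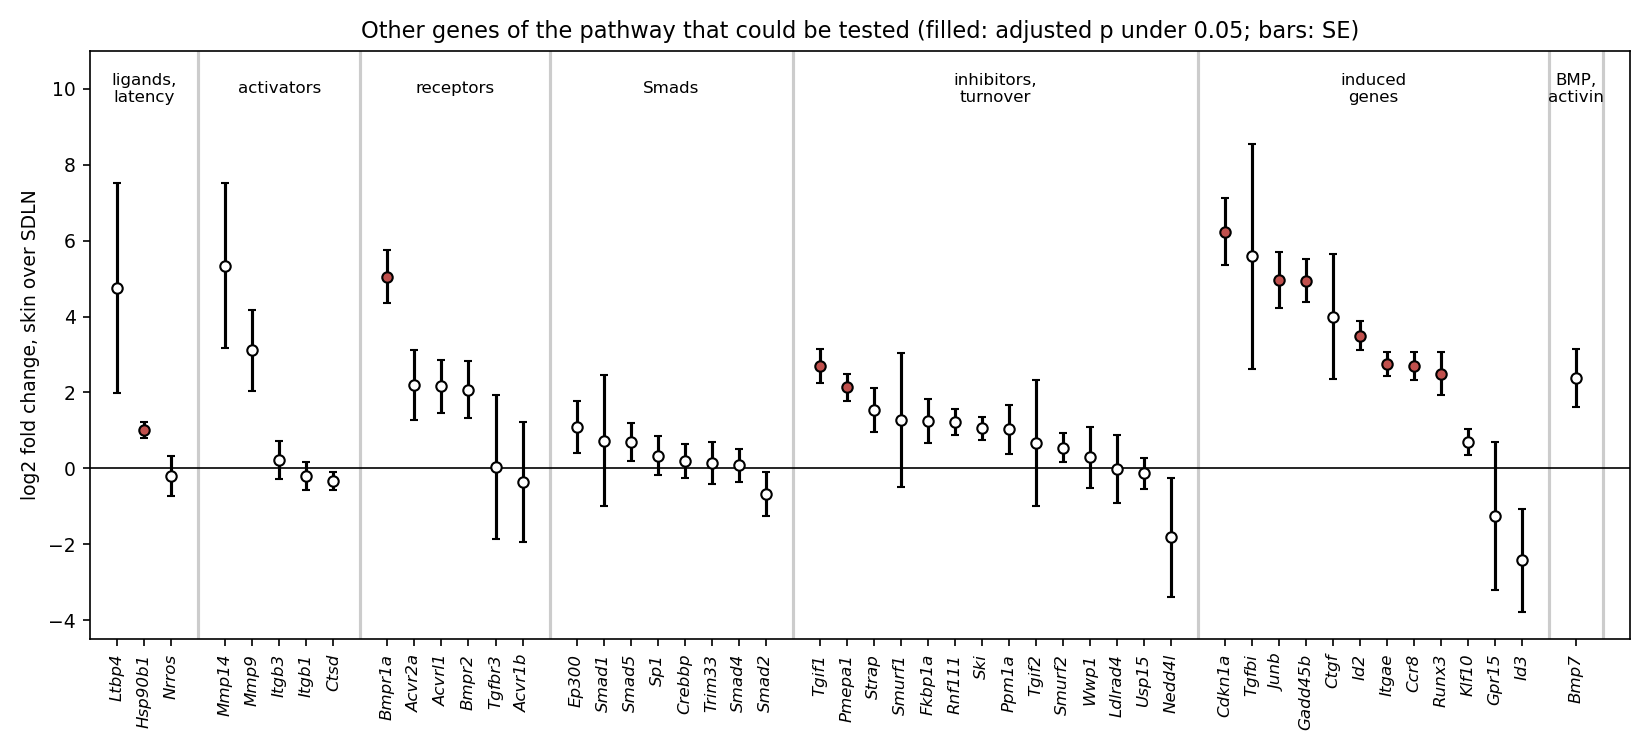
Log2 fold change of skin over SDLN, with its SE, for the 49 tested genes of the wider pathway, grouped by list (a gene of several lists is drawn in the first). Filled circles passed an edgeR adjusted p of 0.05; all 11 are above 0, and none of the Smads is filled.

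Skin 3 stood apart from the other libraries in listed pathway genes that were low elsewhere, among them ligands of the TGF-beta superfamily and genes of matrix, integrin and protease proteins. Of the listed genes, 11 were at 10 CPM or more in skin 3 and under 3 CPM in each of the other 6 libraries, limits that were set after the values were seen, and no other library had such a gene. Inhba, which encodes the activin A subunit, was at 0, 0, 738 and 0.143 CPM in skin 1 to 4, against 0, 0 and 1.0 CPM in SDLN 1 to 3. Ltbp1, which anchors latent TGF-beta in the extracellular matrix, was at 365 CPM in skin 3 and at most 2.83 CPM elsewhere. Tgfb2, another TGF-beta isoform, was at 26.4 CPM in skin 3 and at most 0.552 CPM elsewhere, and Itgb6, an epithelial partner of alpha V, was at 31.2 CPM in skin 3 and had no count elsewhere. Bmp4, Mmp2, Inhbb, Ltbp2, Bmp2, Ltbp3 and Thbs1 were the others. Except for Bmp7, which was not in this group, the BMP and activin genes did not pass the low-count filter.

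The summed markers of keratinocytes and of fibroblasts were also highest in skin 3. The 9 keratinocyte markers in the table summed to 21.1, 25.6, 1476 and 30.6 CPM in skin 1 to 4, against 8.65 to 10.2 CPM in SDLN. The 8 fibroblast markers summed to 9.02, 4.77, 2027 and 3.07 CPM in skin 1 to 4, against 0.232 to 0.9497 CPM in SDLN. Krt17 at 542 CPM and Col3a1 at 1453 CPM led them in skin 3. Krt1 was at 0 in all skin libraries. Krt10, another keratinocyte marker, passed as lower in skin (edgeR adjusted p = 0.0380). It was at 0, 0, 0.0881 and 0 CPM in skin 1 to 4, against 2.65, 2.42 and 2.55 CPM in SDLN 1 to 3. The 11 T cell and Treg markers summed to 16946, 17225, 10865 and 18361 CPM in skin 1 to 4, against 14812 to 18184 CPM in SDLN, so the sum was lowest in skin 3. Its members moved in opposite directions: Ctla4 and Ikzf2 rose (5.87-fold and 2.23-fold, edgeR adjusted p = 0.00501 and 0.0385) and Lck fell (0.459-fold, edgeR adjusted p = 0.0406), while Cd3d, Cd3e and Cd4 were below every SDLN library in every skin library without passing. Ikzf2, Lck, Cd3d, Cd3e and Cd4 were named after their values were seen. Skin 3 was also the highest library for Tgfb1 and Itgav. Without skin 3, Itgav passed (log2 fold change 2.47, edgeR adjusted p = 0.0257), Itgb8 passed (log2 fold change 2.65, adjusted p = 0.0257), and Tgfb1 had a log2 fold change of 2.40 (edgeR adjusted p = 0.233).

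Of the 15 macrophage and dendritic cell markers in the table, 13 had a higher mean in skin, and their sum was 189, 195, 206 and 738 CPM in skin 1 to 4, against 16.5 to 27.3 CPM in SDLN, with Lyz2 as the most abundant and Cd207 and Clec9a at 0 in all skin libraries. Of the 6 of these markers that could be tested, 1 passed in edgeR as higher in skin (against 3.28% of all tested genes) and 0 as lower (against 3.96%). It was Lyz2 (fitted fold 16.7, edgeR adjusted p = 0.0380), with every skin library above every SDLN library. With DESeq2, Csf1r, Mrc1 and Tyrobp passed as higher too (adjusted p = 0.0139, 6.15e-06 and 0.00624), against 8.11% of all tested genes. C1qb and Cd68 did not pass. These 5 markers were named after their values were seen. Of the 5, only Mrc1 did not overlap between the tissues. Macrophages, dendritic cells and keratinocytes are known to make Itgb8 and TGF-beta pathway genes, and their part in the differences was not tested. The 6 platelet markers, of interest because platelets carry GARP and TGF-beta, summed to 3.15 to 12.4 CPM in skin and 0.967 to 1.76 CPM in SDLN, with Ppbp, Gp1bb and Gp6 at 0 in skin. Endothelial markers summed to 16.2 to 73.5 CPM in skin and 388 to 548 CPM in SDLN, mostly from Pecam1, which T cells also express. B cell markers summed to 2.99 to 38.4 CPM in skin and 78.6 to 102 CPM in SDLN, mast cell markers to 0 to 26.2 and 6.64 to 12.6 CPM, CD8 and NK markers to 0.0920 to 91.6 and 43.4 to 48.5 CPM, and melanocyte markers to 0 to 20.5 and 19.5 to 23.9 CPM in the same order.

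**Figure D4:**
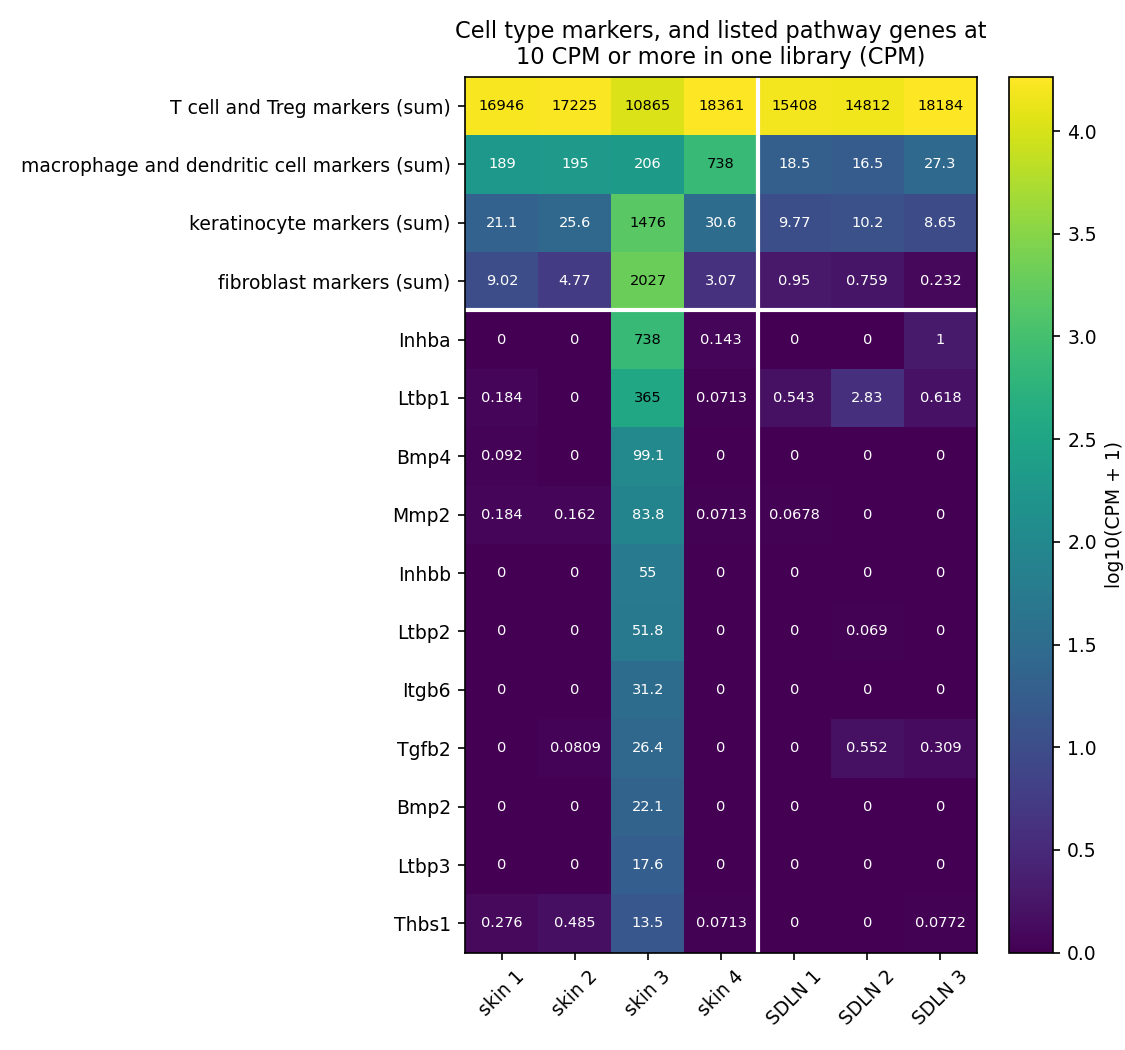
Summed CPM of marker lists (upper rows) and CPM of the 11 listed pathway genes (lower rows) in each library, with the value printed in each cell and the colour on a log10(CPM + 1) scale. In skin 3, keratinocyte markers reach 1476 CPM and fibroblast markers 2027 CPM, and it is the sole library in which the lower rows exceed 10 CPM.

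Across the series, total gene counts were 11009609 to 13921238 in skin and 13123241 to 14785751 in SDLN, and genes with at least 1 count numbered 9690 to 12639 in skin and 13408 to 13845 in SDLN. A count of 3 corresponded to 0.214 to 0.276 CPM in skin and 0.204 to 0.232 CPM in SDLN. Across genes, Pearson's r of log2 CPM was 0.624 to 0.699 between skin libraries, 0.964 to 0.981 between SDLN libraries and 0.617 to 0.700 between the tissues. Foxp3, the defining Treg transcript, was at 107 to 248 CPM in skin and 69.0 to 102 CPM in SDLN, with no overlap and without passing (fitted fold 1.90, edgeR adjusted p = 0.242). Ddx3y, a Y-linked gene, was counted 3877 times in SDLN 3 and no more than 2 times elsewhere. Xist, a transcript of female cells, was counted 4 times in SDLN 3 and at least 4653 times in every other library. By these genes SDLN 3 reads as male and all other libraries as female, so sex was not balanced between the tissues. SDLN 3 was the lowest SDLN library for Tgfbr1, Tgfbr2, Smad3, Smad7, Skil, Itgav and Lrrc32.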

How the data were processed

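The authors deposited unnormalized read counts for each gene symbol in 7 libraries. Per the submitters' processing notes, the tools were CASAVA 1.8.2, SAMtools 0.1.19.0, Bowtie2 2.1.0.0, TopHat2 2.0.12 and HTSeq 0.6.1 on build mm10; per the labels' protocols, cDNA came from the SMARTer Ultra Low Input kit. No source used here gives the annotation or strand setting. The 5 summary lines, 76.3% to 80.8% of all counts, were left out, and 2 symbols that spreadsheet software had turned into dates occurred 2 times each. By GENCODE M21 (mm10), genes on the opposite strand share 1.29% of the exon bases of Furin and 5.90% of those of Itgav, and none shares exon bases of the others.

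Genes kept by filterByExpr (minimum count 10) were scaled by TMM and tested, skin against SDLN, by edgeR 4.0.16's quasi-likelihood test with robust fitting in R 4.3.3, two-sided, with Benjamini-Hochberg adjustment over all 11376 genes and a threshold of 0.05. SE is the log2 fold change over the square root of F. Correlations used log2 CPM with a prior count of 2. Alternatives were RLE and upper-quartile scaling, no filter, a filter at 5 CPM on the mean, limma-voom (limma 3.58.1) without and with a weight per tissue, DESeq2 1.42.0, replicate blocks and each library left out. Named genes are the 10; up to 3 called genes per direction and the most abundant gene of each pathway list; the most abundant marker of each cell type; and the 3 genes most correlated with each called member, of which 1 is not reported here. The members and lists were chosen with earlier results of these data known.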

Additional observations from a re-analysis of the deposited data

Results flagged for a closer look

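In 6 of 35 values checked over the 4 skin libraries, 1 library lay so far from the other 3 that its gap to them exceeded Dixon's 95% critical value. For independent values with a normal distribution, chance does so in about 1 in 20. The values here share libraries and were not shown to be normal, so 6 of 35 cannot be set against that rate. In skin 3, Inhba was at 738 CPM, keratinocyte markers summed to 1476 CPM and fibroblast markers to 2027 CPM. In skin 4, Id2 was at 1431 CPM, the sum of macrophage and dendritic cell markers was 738 CPM and that of CD8 and NK markers 91.6 CPM. None of the 10 genes was among them. No cause was tested.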

How the results depend on the processing

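All 10 genes kept the direction of their fold change under the 16 alternatives, except Skil without skin 1 (log2 fold change -0.045). Itgav passed in 11 of the 16 and Itgb8 in 9. The replicate block on 6 and 7 libraries left 0 and 0 of the 10 genes called (Itgav log2 fold change 2.42 and 2.43, Itgb8 2.24 and 2.26), 32 and 44 genes higher and 10 and 12 lower over all genes, and 2 and 2 of the wider pathway. Same-numbered libraries did not deviate together (r 0.0672, -0.00176 and -0.0401). Those values cannot tell whether the numbers mark shared animals, because the skin libraries varied widely among themselves. Without the low-count filter, 1 of the 10 was called (Itgb8 2.45 did not pass), with 188 genes higher and 70 lower. A mean of at least 5 CPM gave 100 lower genes. DESeq2 called 6 of the 10 (Tgfb1 2.82, Furin 2.31, Tgfbr1 1.38 and Smad7 1.92 in addition), 19 of the wider pathway and 923 genes higher. Limma-voom called 1 of the 10 (Itgb8 2.36 did not pass) and 729 genes lower. With a weight per tissue Smad7 passed at 1.74, with 594 genes higher and 987 lower. The median log2 fold change over all tested genes was -0.616 and -0.617 in these fits, against 0.05 in the main fit. With the replicate block on 6 and 7 libraries it was -0.552 and -0.536. When 1 library was left out, called genes numbered 0 to 4 of the 10, 33 to 582 higher and 9 to 822 lower over all genes, and 1 to 14 of the wider pathway. Log2 fold changes then were 2.40 to 3.21 (Tgfb1), 1.88 to 2.63 (Furin), 2.47 to 2.77 (Itgav), 2.13 to 2.66 (Itgb8), 0.97 to 1.57 (Tgfbr1), 1.71 to 2.23 (Smad7) and -0.045 to 0.50 (Skil). Crebbp turned to -0.18 and -0.17 with the block and -0.067 without skin 3 (-0.067 to 0.43 with 1 library left out). The causes were not tested, and with 3 SDLN libraries 1 fewer leaves 2. Counts under 50 limit Tgfb1 in SDLN.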

Other observations

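Acvrl1, Ski, Rnf111, Strap and Bmp7 did not overlap between the tissues and passed with DESeq2 but not with edgeR's quasi-likelihood test. They were picked out after their values were seen. Of the 49 tested genes of the wider pathway, 17 were higher in skin without overlap, against 10.1% of all tested genes. Id3 and Nedd4l were the 2 that were lower without overlap, against 1881 of 11376 tested genes. Nedd4l was at 5.43, 0, 2.56 and 4.28 CPM in skin 1 to 4, against 12.2, 11.4 and 8.96 in SDLN 1 to 3. It did not pass (edgeR adjusted p = 0.646). Acvrl1, the type I receptor ALK1, was at 85.0, 148, 22.9 and 52.2 CPM in skin 1 to 4, against 19.7, 17.8 and 14.2 CPM in SDLN 1 to 3 (DESeq2 adjusted p = 0.0149, edgeR adjusted p = 0.124). Ski, the relative of Skil, was at 252, 229, 131 and 241 CPM in skin 1 to 4, against 93.5, 112 and 102 CPM in SDLN 1 to 3 (DESeq2 adjusted p = 0.0197, edgeR adjusted p = 0.0945). Rnf111, the ubiquitin ligase Arkadia that removes Smad7 and Skil proteins, was at 157, 195, 113 and 113 CPM in skin 1 to 4, against 72.0, 63.3 and 50.2 CPM in SDLN 1 to 3 (DESeq2 adjusted p = 0.0104, edgeR adjusted p = 0.0819). Strap, which binds TGF-beta receptors together with Smad7, was at 40.3, 93.0, 29.6 and 58.1 CPM in skin 1 to 4, against 18.9, 17.8 and 20.5 CPM in SDLN 1 to 3 (DESeq2 adjusted p = 0.0420, edgeR adjusted p = 0.198). Bmp7, a bone morphogenetic protein, was at 39.7, 33.3, 185 and 58.9 CPM in skin 1 to 4, against 9.70, 18.02 and 17.8 CPM in SDLN 1 to 3 (DESeq2 adjusted p = 0.0115, edgeR adjusted p = 0.122). Skin 3 was the lowest skin library for Acvrl1, Ski and Strap, level with skin 4 for Rnf111, and the highest for Bmp7. Mmp9, Mmp14 and Bmpr2 also passed with DESeq2 and not with edgeR, and their tissues overlapped.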
